A study of Canis lupus familiaris with 6 samples.

Results

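The Notch genes examined here were the receptors NOTCH1, NOTCH2 and NOTCH3, the ligands JAG1, JAG2, DLL1 and DLL4, the DNA-binding factor RBPJ and the target genes HES1 and HEY1. They were taken as every probe set (a group of array probes read as 1 value) whose single gene symbol in the platform annotation is one of these 10 names. This gave 12 probe sets for 8 of the 10 genes, among 42924 probe sets and 15115 named genes in all. JAG1 and RBPJ had 3 probe sets each and the other 6 genes 1 each. DLL1 and HES1 had none under that rule and were not analysed here, so that HEY1 is the sole HES or HEY gene among the results on these members.

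In Notch signalling a ligand on the surface of 1 cell binds a receptor on its neighbour. The receptor is then cut by an ADAM protease and by gamma-secretase, and its released intracellular domain enters the nucleus, where it joins RBPJ and Mastermind coactivators to switch on genes such as those of the HES and HEY families of repressors. In the developing mouse kidney the pathway is known for its part in patterning the nephron, and in the mouse collecting duct for setting the balance of principal and intercalated cells.

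The cells were MDCKII, a line derived from dog kidney tubule that polarizes in culture. In the 3D group (3 arrays), cells in 60 mm dishes were plated in a thin layer of 100 µl of Matrigel, a basement membrane extract, under MEM with 2% Matrigel, and formed cysts. In the 2D group (3 arrays), the same line was grown without Matrigel as a flat monolayer, and RNA was taken 36 h after plating in both groups. The design compares them to find genes raised in 3D that may take part in forming a lumen; both groups are 1 cell line at 1 time point, and the labels name no agent that blocks or activates Notch.

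The values are log2 expression from 1-colour Affymetrix canine arrays, and they lie on separate scales. On the arrays of replicates 2 and 3 the medians were 7.06 to 7.08 and the lower quartiles 5.64 to 5.67, whereas the median was 5.26 on the 3D array of replicate 1 and 5.42 on its 2D array. Every test here is therefore one of the arrays of replicates 2 and 3, with n = 2 arrays in each group. The replicate 1 pair is given apart, as a difference without a test. In the tested arrays, 10 of 11 listed markers of kidney tubule epithelium had a probe set, and the means of all 10 over these arrays (7.18 to 13.9) lay above the median of all probe sets. Lists of mesenchymal, endothelial and blood cell markers had 1 of 7, 1 of 6 and 0 of 4 genes above that median, and none of the 27 measured marker genes passed the test between 3D and 2D.

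None of the 12 Notch probe sets passed the test for a difference between 3D and 2D. With limma's test, adjusted by Benjamini-Hochberg over all 42924 probe sets at a threshold of 0.05, 0 of 12 passed and 2 had an unadjusted p under 0.05. Over the whole array 6.61% of probe sets passed, 3.65% higher and 2.96% lower in 3D, and the unadjusted p was under 0.05 for 23.5%. The log2 fold changes of the members ran from -0.27 for a JAG1 probe set to 0.28 for DLL4, with a median of 0.03 against -0.01 over all probe sets, and 7 were above 0 and 5 below. On these 4 arrays the 95% confidence intervals of all 12 stayed between -0.56 and 0.60, and each left out a 2-fold difference in either direction. This bound does not hold once the replicate 1 pair is taken in: with all 6 arrays and the replicate block, NOTCH3 was at -0.92 (SE 0.731) and a JAG1 probe set at 0.95 (SE 0.740). The smallest difference that passed anywhere on the array was 0.455 in size. The arrays measure RNA from whole dishes, in which fewer cells using a gene and less RNA per cell cannot be told apart.

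**Figure D1:**
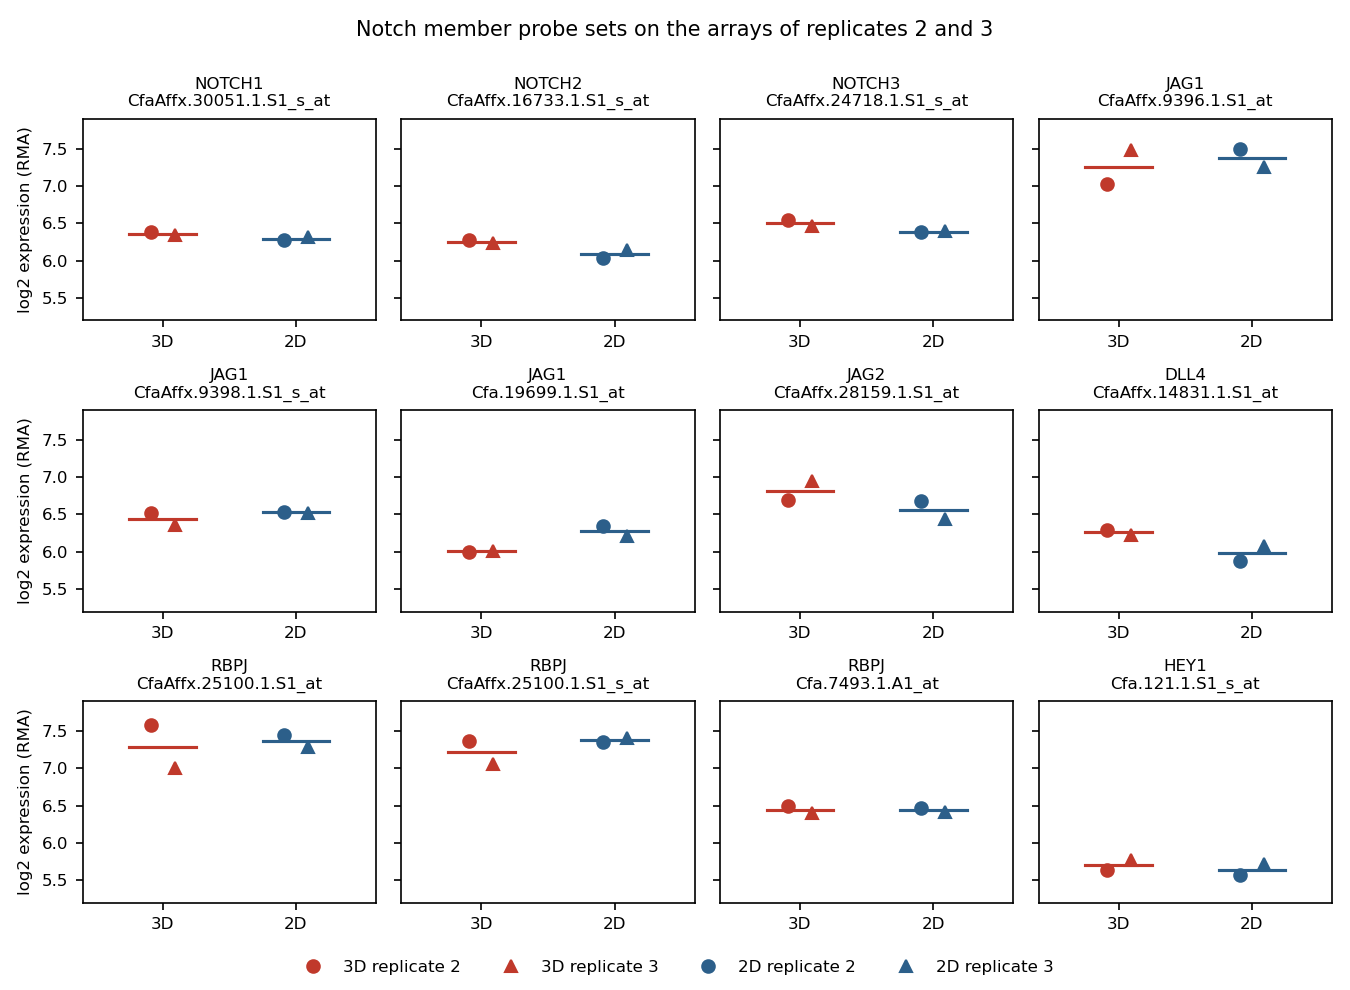
Log2 expression (RMA, vertical axis) of each of the 12 Notch probe sets on the arrays of replicates 2 (circles) and 3 (triangles), in 3D (red) and 2D (blue), with bars at the mean of 2 arrays and the identifier of each probe set above its panel. The means of the groups differ by at most 0.28, and the largest gap between arrays of the same group is 0.58, for an RBPJ probe set in 3D.

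The receptors were each read by 1 probe set and had slightly higher values in 3D than in 2D in replicates 2 and 3, while the fits that take in the replicate 1 pair put all 3 lower in 3D. NOTCH1, the founding receptor of the family in mammals, had 6.38 and 6.34 in 3D replicates 2 and 3, against 6.27 and 6.31 in 2D. NOTCH2, the receptor known in the mouse for its part in forming proximal nephron segments, had 6.27 and 6.24 in 3D, against 6.03 and 6.14 in 2D. NOTCH3, known from vascular smooth muscle, had 6.54 and 6.46 in 3D, against 6.38 and 6.40 in 2D. For all 3 receptors both 3D arrays lay above both 2D arrays, by as little as 0.03 in the case of NOTCH1. Over the whole array 25.1% of probe sets had both 3D arrays above both 2D arrays. Their log2 fold changes were 0.07 (SE 0.0977) for NOTCH1, 0.17 (SE 0.102) for NOTCH2 and 0.11 (SE 0.0992) for NOTCH3, with limma adjusted p of 0.744, 0.389 and 0.586.

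These receptor probe sets carry the suffix _s_at, as do 6 of the 12, which in Affymetrix naming marks probes that can match more than 1 transcript. Whether they read a single receptor each was not tested.

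Among the ligands the values went both ways. DLL4, a Delta-type ligand known from sprouting blood vessels, had 6.29 and 6.23 in 3D, against 5.88 and 6.08 in 2D. Its 3D arrays lay above both 2D arrays, with a log2 fold change of 0.28 (SE 0.114, 95% interval 0.00 to 0.56, limma adjusted p = 0.209), and the sign turned in the fits that take in replicate 1 (-0.33 with all 6 arrays and -0.12 with these quantile normalized). The 6 endothelial markers, a cell type that uses DLL4, had a summed log2 level of 38.1 to 38.6 on the 3D arrays and 38.1 to 38.5 on the 2D arrays, and none of them passed; the part of such cells in the DLL4 value was not tested.

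JAG2, a Jagged-type ligand, had 6.69 and 6.95 in 3D, against 6.68 and 6.44 in 2D. The groups did not overlap, but only 0.01 separated the lower 3D array from the upper 2D array. The log2 fold change was 0.26 (SE 0.140, 95% interval -0.08 to 0.60, limma adjusted p = 0.335), against -0.14 with all 6 arrays. Of the differences within the array pairs of replicates 2 and 3, the JAG2 difference in replicate 3 was the largest in size among the members, at 0.51, against 0.01 in replicate 2.

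JAG1, the ligand whose loss in humans causes Alagille syndrome, was read by 3 probe sets, named here by their order of brightness on the 4 tested arrays. All 3 had a log2 fold change below 0, and their mean was at -0.16 (limma adjusted p = 0.377). They differed in whether the groups overlapped. The dimmest had 6.0 and 6.01 in 3D, against 6.34 and 6.21 in 2D, and was the sole member probe set with both 3D arrays below both 2D arrays. Its log2 fold change was -0.27 (SE 0.103, 95% interval -0.52 to -0.02), the limma unadjusted p was 0.0397 and the adjusted p 0.187. The brightest had 7.02 and 7.48 in 3D, against 7.50 and 7.26 in 2D. Here the 2 arrays of 3D lay 0.46 apart, more than the difference of the groups (-0.13, SE 0.177, limma adjusted p = 0.738), and the sign turned without 3D replicate 2 (0.10). The middle one had 6.52 and 6.36 in 3D, against 6.54 and 6.52 in 2D (-0.09, SE 0.107, limma adjusted p = 0.693), with one 3D array at the level of the 2D arrays.

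RBPJ, which carries the signal to DNA and holds the same genes off when no receptor fragment is present, also overlapped between the groups on each of its 3 probe sets, named in the same way. The brightest had 7.58 and 7.0 in 3D, against 7.44 and 7.28 in 2D. The 3D arrays thus lay on both sides of the 2D arrays, the widest spread within a group among the members, and the log2 fold change was -0.07 (SE 0.198, limma adjusted p = 0.888). The middle one had 7.37 and 7.06 in 3D, against 7.35 and 7.41 in 2D (-0.165, SE 0.132, limma adjusted p = 0.532). The dimmest had 6.49 and 6.40 in 3D, against 6.47 and 6.41 in 2D (0.005, SE 0.101, limma adjusted p = 0.988). On all 3 probe sets 3D replicate 3 was the lowest of the 4 arrays.

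HEY1, a repressor that active Notch is known to induce, was the dimmest member. It had 5.64 and 5.77 in 3D, against 5.57 and 5.72 in 2D, with overlapping groups and a log2 fold change of 0.06 (SE 0.112, 95% interval -0.21 to 0.33, limma adjusted p = 0.818). Without 3D replicate 3 the value was -0.005, without 2D replicate 2 it was -0.015 and with all 6 arrays it was -0.47. Its mean over these arrays, 5.675, was at the lower quartile of all probe sets (5.665).

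In 6 of the 12 probe sets the 3D and 2D arrays of replicates 2 and 3 did not overlap, 5 with 3D higher and 1 with 3D lower. Over the whole array 51.8% of probe sets did not overlap, 25.1% with 3D higher and 26.7% with 3D lower. The members' share is thus near that of the array. Paired by number alone, replicates 2 and 3 gave the same sign for 8 of the 12 probe sets. The 6 without overlap have the same sign under any pairing, and the share over the whole array was not counted.

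**Figure D2:**
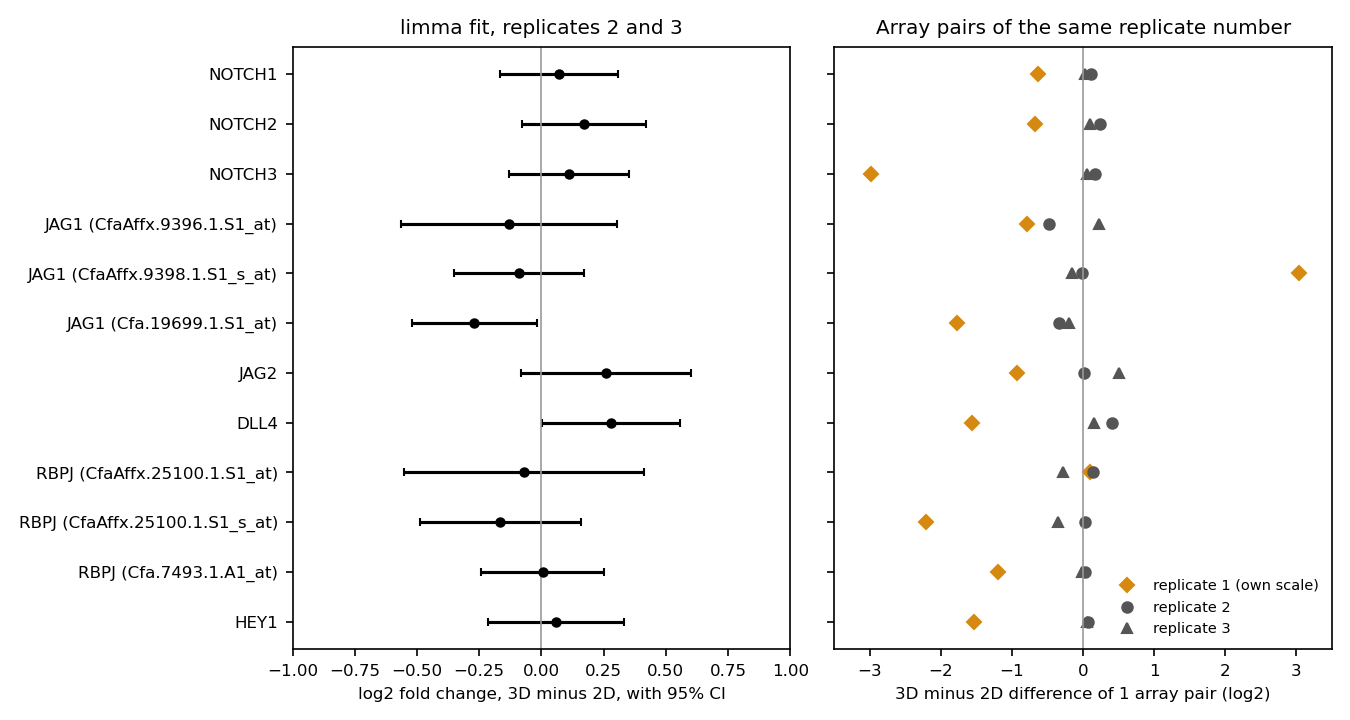
Left, log2 fold change (3D minus 2D) of the 12 Notch probe sets in the limma fit of replicates 2 and 3, with 95% confidence intervals as bars; only the DLL4 interval and that of 1 JAG1 probe set leave out 0, before adjustment. Right, the 3D minus 2D difference of each array pair, where the replicate 1 values (diamonds, on their own scale) run from -2.98 to 3.04 and those of replicates 2 and 3 stay within 0.51 of 0.

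The replicate 1 pair showed much larger differences, mostly downward. On its scale 10 of the 12 probe sets were lower in 3D and 2 were higher, with a median difference of -1.065 and 7 of 12 at least 1 log2 unit in size. Over the whole array 55.9% of probe sets were lower in 3D in this pair and 33.9% differed by at least 1 unit, against 3.26% in the replicate 2 pair and 1.6% in the replicate 3 pair. None of the members reached 1 unit in replicate 2 or 3. The sign in replicate 1 was that of the tested log2 fold change for 3 of the 12 probe sets. The share over the whole array was not counted, so this number is not a trait of the members.

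The receptors were all lower in 3D in this pair. NOTCH3 had 2.63 in 3D and 5.61 in 2D, a difference of -2.98, while NOTCH1 had 5.02 in 3D and 5.66 in 2D (-0.64) and NOTCH2 had 5.90 in 3D and 6.58 in 2D (-0.68). The NOTCH3 value in 3D was below the lower quartile of that array (3.38), so that the size of its difference is uncertain. DLL4 had 1.49 in 3D and 3.05 in 2D (-1.56), both below the lower quartiles of their arrays (3.38 and 3.52). JAG2 had 2.70 in 3D, below that quartile as well, and 3.63 in 2D (-0.93). HEY1 had 4.10 in 3D and 5.64 in 2D (-1.54).

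Probe sets of 1 gene disagreed in this pair. For JAG1 the differences were -1.78 on the dimmest (4.46 in 3D, 6.24 in 2D), -0.79 on the brightest (4.10 in 3D, 4.89 in 2D) and 3.04 on the middle one (5.50 in 3D, 2.46 in 2D). They span 4.82 log2 units, against 0.18 for the same probe sets in the tested fit. For RBPJ they were -1.20 on the dimmest (3.52 in 3D, 4.72 in 2D), 0.09 on the brightest (5.28 in 3D, 5.19 in 2D) and -2.21 on the middle one (3.04 in 3D, 5.25 in 2D), a span of 2.30 against 0.17. The middle JAG1 value in 2D (2.46) and the middle RBPJ value in 3D (3.04) were below the lower quartiles of their arrays, so that the sizes of these spans are uncertain. With 1 array per group these replicate 1 differences have no replicate check, and their distance from replicates 2 and 3 was not tested.

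The member probe sets lay in the lower and middle part of the arrays' brightness. Their means over the 4 arrays of replicates 2 and 3 were 5.675 to 7.325, and 9 of the 12 lay below the median of all probe sets (7.07) and 0 below the lower quartile. This is a place in the brightness of the array and not an amount of transcript, since probes differ in how well they bind. The 7 measured mesenchymal markers had means of 4.15 to 7.08, the 6 endothelial markers 5.48 to 8.395 and the 4 blood cell markers 4.59 to 6.70, so that the members overlapped in brightness with markers of cell types other than the one cultured. Each marker gene was read from its brightest probe set on average over all 6 arrays. For COL1A2, the lowest mesenchymal value, this was its dimmest on the 4 tested arrays, where another of its probe sets had 4.98. No detection calls were used here, and whether each Notch transcript was above background cannot be stated from these values.

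**Figure D3:**
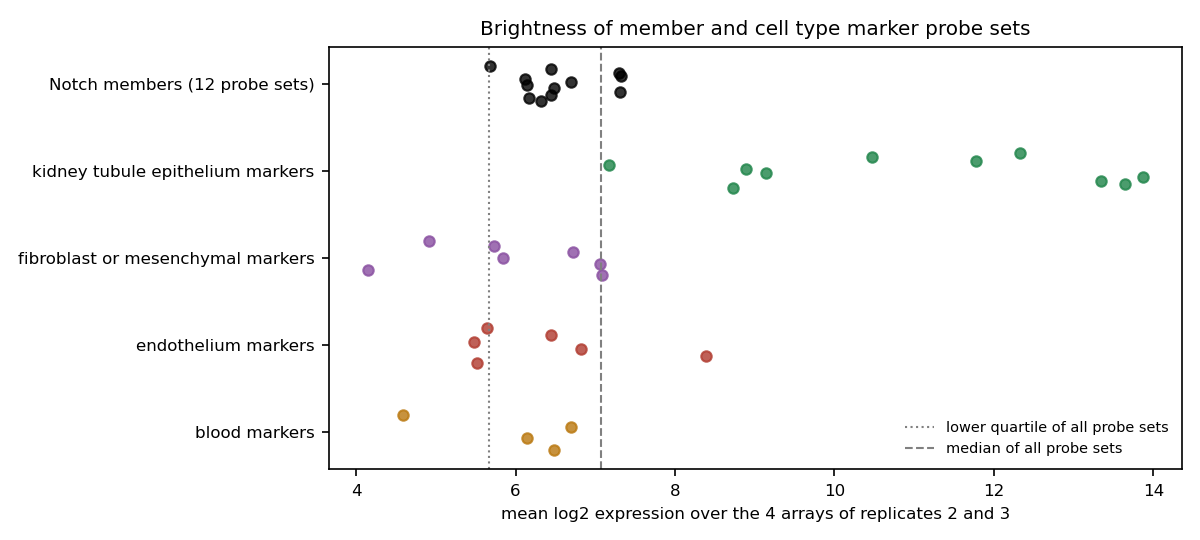
Mean log2 expression over the 4 arrays of replicates 2 and 3 (horizontal axis) of the 12 Notch probe sets and of the marker genes of 4 cell types, 1 point per probe set, with the lower quartile (dotted) and median (dashed) of all probe sets. The Notch probe sets lie between 5.675 and 7.325, and the kidney tubule epithelium markers between 7.18 and 13.9.

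The probe set with the largest limma statistic in size among the members was the dimmest JAG1 probe set. Over the 4 tested arrays, each probe set centred on its mean, the genes with the smallest Euclidean distance to it were CD1A6, CCM2 and KLRF1, at 0.0260 each. CCM2 had 10.54 and 10.52 in 3D, against 10.85 and 10.74 in 2D, and did not pass (limma adjusted p = 0.187). The likeness is shared widely, since 248 of 14534 genes lay within a distance of 0.1.

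Beyond the members, 1 of 54 measured genes of the wider Notch pathway passed, against 7.29% of all 15115 named genes, 4.2% higher and 3.09% lower in 3D. These were the genes with a probe set out of 65 listed, each read from the brightest of its probe sets on average over the 6 arrays. KAT2B rose in 3D, 0 genes fell and 53 did not pass, and the median log2 fold change was 0.04 against -0.01 over all named genes. KAT2B encodes the histone acetyltransferase PCAF, a coactivator that joins the Notch complex among many others. It had 6.29 and 6.43 in 3D, against 5.34 and 5.56 in 2D, with both 3D arrays above both 2D arrays. The log2 fold change was 0.91 (SE 0.122, limma adjusted p = 0.0169), and the replicate 1 pair differed by 0.95. Both 2D values lay below the lower quartiles of their arrays, so that the size of the rise is uncertain. The call was lost without 3D replicate 2 (limma adjusted p = 0.180), 3D replicate 3 (0.111), 2D replicate 2 (0.415) or 2D replicate 3 (0.421), settings under which 0 probe sets of the whole array passed, and the log2 fold change stayed at 0.80 to 1.02.

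**Figure D4:**
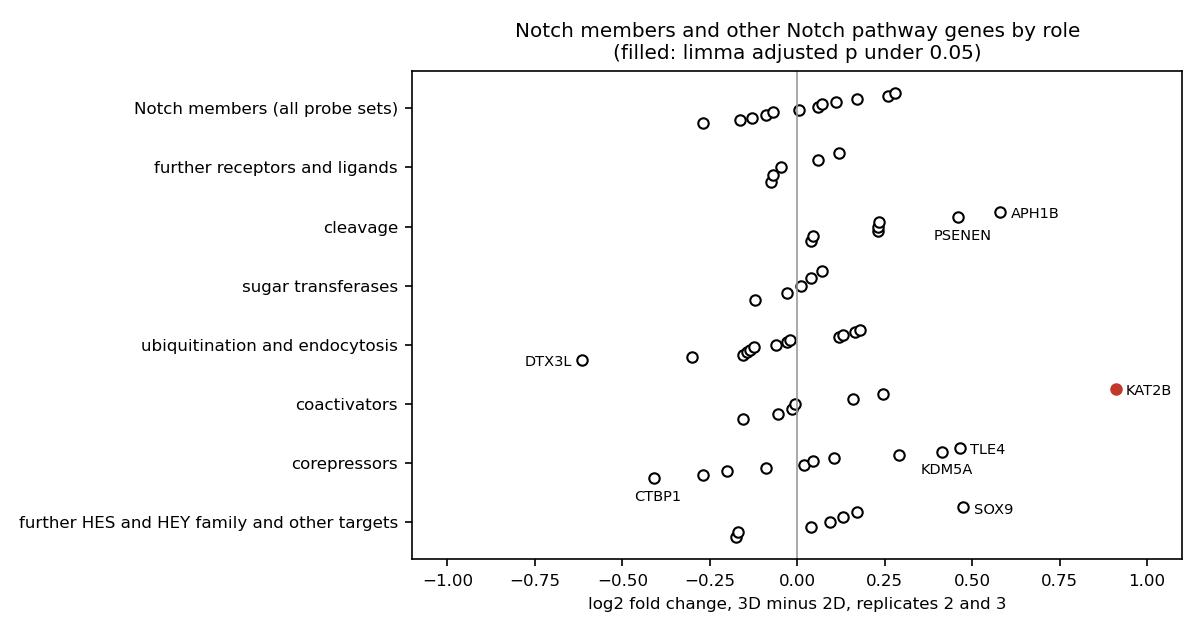
Log2 fold change (3D minus 2D, replicates 2 and 3) of the 12 Notch member probe sets and of 54 other pathway genes grouped by role, 1 point each, with names at 0.4 or more in size. KAT2B (0.91) is the sole filled point, which marks a limma adjusted p under 0.05.

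None of the 7 measured genes that cut the receptor passed, with log2 fold changes of 0.04 to 0.58 on their representative probe sets. In the replicate 1 pair 5 of the 7 were lower in 3D, and a second probe set of the protease gene FURIN was at -0.09. PSENEN, a subunit of gamma-secretase, was read by 4 probe sets. The brightest had 12.61 and 12.44 in 3D, against 12.01 and 12.12 in 2D. On all 4 probe sets both 3D arrays lay above both 2D arrays, as did 25.1% of probe sets over the whole array. The PSENEN log2 fold changes were 0.415 to 0.48, with limma adjusted p of 0.0669 to 0.0888. The replicate 1 differences were 0.61 to 0.89. These 4 probe sets read the same arrays and are not replicates of one another. APH1B, another gamma-secretase subunit, was at 0.58 (SE 0.162, limma adjusted p = 0.0942), with -0.28 in replicate 1. The subunit NCSTN and the catalytic PSEN2 were at 0.23 each, with limma adjusted p of 0.394 and 0.398. The other NCSTN probe sets were at 0.295, 0.02 and 0.005. A second PSEN2 probe set was at 0.385 (limma adjusted p = 0.107), with -2.49 in replicate 1.

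Corepressors and coactivators other than KAT2B did not pass on their representative probe sets. TLE4, a Groucho-type corepressor that HES proteins recruit, passed on 1 of its 3 probe sets. That probe set had 7.68 and 7.22 in 3D, against 6.64 and 6.55 in 2D (0.855, SE 0.166, limma adjusted p = 0.0398), with 0.10 in replicate 1. The other TLE4 probe sets were at 0.465 and 0.15, and the mean of all 3 did not pass (0.49, limma adjusted p = 0.0794). As for KAT2B, the call was lost when any 1 of the 4 arrays was left out (limma adjusted p = 0.0921 to 0.455), while the log2 fold change stayed at 0.625 to 1.085. CTBP1, a corepressor, was at -0.41 (limma adjusted p = 0.0857), the demethylase KDM5A at 0.415 (0.115) and the deacetylase HDAC2 at -0.27 (0.257). The other KDM5A probe sets were at 0.265 and -0.115. NCOR1, another corepressor, passed on none of its 8 probe sets, with log2 fold changes of 0.055 to 0.635 (limma adjusted p = 0.0588 to 0.901). On 6 of the 8 both 3D arrays lay above both 2D arrays, as did 25.1% of probe sets over the whole array. In replicate 1, 7 of the 8 were lower in 3D. These NCOR1 probe sets read the same arrays and are not replicates. Among the coactivators CREBBP was at 0.245, MAML2, of the Mastermind family, at 0.16 and KAT2A at -0.155, with limma adjusted p of 0.282, 0.425 and 0.622. The other CREBBP probe sets were at -0.315 and 0.40, so that the signs for CREBBP and KDM5A differ between their probe sets.

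For the genes that mark or remove ligands and receptors, 0 of 13 passed. DTX3L, a ubiquitin ligase of the Deltex family, was at -0.615 on both of its probe sets (limma adjusted p = 0.0780 and 0.0841), with replicate 1 differences of -0.68 and 0.00. NUMBL, a Numb-type adaptor that restrains Notch, was at -0.30 (limma adjusted p = 0.154), NUMB at 0.165 (0.472) and the ligand-activating ligase MIB2 at 0.18 (0.410). On their representative probe sets the 5 listed sugar transferases lay between -0.12 for RFNG and 0.07 for POFUT1, with POGLUT1 at 0.04 and MFNG at -0.03, and none passed. Other probe sets of these genes reached further, with one of POFUT1 at -0.445 (limma adjusted p = 0.0708, -0.52 in replicate 1) and one of RFNG at -0.375 (0.284). The 5 further receptors and ligands lay between -0.075 for DLL3 and 0.12 for DLK1 on their representative probe sets, with NOTCH4 at -0.07 and DNER at 0.06, and none passed. The other DLK1 probe set was at -0.13, so that the sign for DLK1 differs between its probe sets.

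The 7 other HES, HEY and target genes with a probe set did not pass either. SOX9, a transcription factor that Notch is known to induce in some tissues, was at 0.475 (SE 0.154, limma adjusted p = 0.132), with -0.64 in replicate 1. HEYL was at 0.17, HES5 at -0.175 and HES7 at 0.13, with limma adjusted p of 0.379, 0.445 and 0.511. Their replicate 1 differences had the other sign, at -0.74, 0.83 and -1.37. Both HES5 values of that pair lay below the lower quartiles of their arrays.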

How the data were processed

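The authors deposited 1 log2 value per probe set and array for 6 arrays; the submitters' processing notes name RMA (background correction, quantile normalization and probe summary) and limma, and neither their versions nor the probe set definition and genome build are stated in the sources read. The replicate 1 columns are on another scale, with 413 (3D) and 246 (2D) values below 0, by a route that no label states. The 111 control probe sets were left out and no filter on level was set. Of the other 42924, 29254 had 1 symbol, 439 several and 13231 none. The Entrez identifiers of all 12 member probe sets had the same symbol in the gene table of UU_Cfam_GSD_1.0, used for names only.

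Replicates 2 and 3 were fitted with lmFit and eBayes (limma 3.58.1, R 4.3.3), two-sided, without a block, with Benjamini-Hochberg adjustment over all 42924 probe sets; figures used matplotlib 3.10.9. The fit was tested on simulated data with equal noise for all probe sets. The planted changes were larger than any tested member difference, so changes of the members' size were not tried. The labels call the replicates biological and say no more of their source, so p-values measure the spread between these samples, with 2 arrays per group limiting precision. Members, lists, the choice of arrays and tests were set with earlier results of these data known. Named were all member probe sets, up to 4 genes per role of the wider list by smallest adjusted p, and the 3 genes most like the member probe set with the largest statistic. Probe sets of TLE4, DTX3L, PSENEN, POFUT1, RFNG, DLK1, FURIN, CREBBP and KDM5A other than the representative ones were chosen after their values were seen. The same holds for those of NCSTN, PSEN2 and NCOR1. NCOR1 was named outside the rule of 4 genes per role. Alternatives left out each array, added the replicate block, used all 6 arrays (as deposited, with the block, or quantile normalized), median centred the arrays, used trend and robust priors, left out dim probe sets or averaged the probe sets of each gene.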

Additional observations from a re-analysis of the deposited data

How the results depend on the processing

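Under all 12 alternatives 0 member probe sets passed the limma test, with the lowest adjusted p among them at 0.166 (median centred) and the highest at 1. The settings that left out an array, added the replicate block or used all 6 arrays gave almost no calls over the whole array. In those settings a member call was hardly possible. The 12 alternatives gave 144 member values, in which averaging the probe sets entered the JAG1 and the RBPJ value 3 times each. Of these values 33 had the other sign, 8 in each of the settings with all 6 arrays. With all 6 arrays, with or without the replicate block, they were -0.17 for NOTCH1, -0.11 for NOTCH2, -0.92 for NOTCH3, -0.33 for DLL4, -0.14 for JAG2, 0.95 for the middle JAG1 probe set, -0.40 for the dimmest RBPJ probe set and -0.47 for HEY1. With all 6 arrays quantile normalized they were -0.0922 for NOTCH1, -0.0433 for NOTCH2, -0.67 for NOTCH3, -0.12 for DLL4, 0.83 for that JAG1 probe set, -0.27 and 0.0167 for the dimmest and the brightest RBPJ probe set and -0.35 for HEY1. These fits take in the replicate 1 pair; the cause of its differences was not tested. The dimmest RBPJ probe set was at -0.01 with median centring, and RBPJ at -0.0767 with its probe sets averaged. Leaving out 1 array gave HEY1 values of -0.015 to 0.135, values of -0.36 to 0.10 for the brightest JAG1 probe set, and RBPJ values of -0.36 to 0.22 on the brightest and -0.04 to 0.05 on the dimmest probe set.

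The 2837 calls over the whole array became 0 when any of the 4 arrays of 3D or 2D was left out (limma, with 4683 to 10892 at an unadjusted p under 0.05), 0 with the replicate block (8325), 0 with all 6 arrays (105, and 2723 with the block) and 2 with all 6 quantile normalized. With the probe sets of each gene averaged 1153 of 15115 genes passed, 565 higher and 588 lower, against 1102 genes on representative probe sets, 635 higher and 467 lower. The KAT2B call of the wider list, 1 gene, became 0 in each of these settings other than the averaged probe sets: the list's count was 0 when an array was left out, 0 with the replicate block (9 genes at an unadjusted p under 0.05) and 0 with all 6 arrays (0 at an unadjusted p under 0.05, 3 with the block and 1 quantile normalized). The numbers of replicates 2 and 3 were not taken as pairs: across probe sets the replicate 3 minus 2 differences of 3D and 2D had r = 0.00127. With 1 array left out the lone array is assumed to vary like the other group.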
